A study of Homo sapiens with 346 samples.

Results

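RAB genes encode small GTPases that mark the membranes of the secretory and endocytic routes. All rows of the deposited gene tables whose symbol is RAB followed by a number and at most 1 letter from A to D were taken, which gave 62 of the 31463 genes listed. The HCT-116 table holds 60 of them among 28806 genes and that of HepG2 holds 61 among 29551, with 59 in both. RAB38 was listed only for HCT-116, and RAB32 and RAB39B only for HepG2. Members were sorted by the route on which each is best known to act: 17 on the ER and Golgi, 9 in regulated secretion, 4 in export to the plasma membrane, 7 at the early endosome, 9 at the recycling endosome, 11 at late endosomes, lysosomes and autophagosomes, and 5 at the cilium or elsewhere.

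A RAB protein is switched on by an exchange factor that loads GTP and off by a GTPase activating protein. Geranylgeranyl groups added to its C-terminus hold it in the membrane, GDP dissociation inhibitors carry it back through the cytosol, and in the GTP form it recruits effectors such as tethers, motors and adaptors. In epithelial cells a set of these GTPases sorts cargo to the apical and basolateral surfaces, while others serve every cell.

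Single cells were profiled with Smart-seq2, which makes full-length cDNA from polyadenylated RNA. The human colorectal carcinoma line HCT-116 and cells labelled HepG2 (a name that stands for a human liver carcinoma line) were each studied live and after 1 week at -80 °C in 80% methanol followed by rehydration. All cells were sorted by flow cytometry into wells, the live ones after exclusion of propidium iodide. The tables hold 91 live and 92 fixed HCT-116 cells and 68 live and 83 fixed HepG2 cells, 334 in all, while 12 of the 346 labelled cells have no column. The column numbers differ from those of the sample titles, so a column was matched to its line and treatment and not to a single title. Live and fixed cells of a line were taken from a common culture. HCT-116 was processed once and HepG2 in 2 experiments that the labels do not separate. Cells of a line and treatment were therefore counted together as 1 sample, no test between groups was run, and every SD below is over cells. Fixed cells went into libraries later than live cells, so fixation and library batch cannot be told apart.

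Total reads per cell ranged from 0.2 to 5.3 M (mega reads). Their medians were 2.5 M for live HCT-116, 1.8 M for fixed HCT-116, 2.4 M for live HepG2 and 2.0 M for fixed HepG2. Ribosomal RNA held 25.7% of the mean TPM of live HCT-116 cells against 7.86% of fixed ones, and 6.28% against 2.44% in HepG2. None of 17 hepatocyte markers exceeded 1 TPM in most cells of any group, and their summed level had a median of 1.3 TPM among live HepG2 cells and 1.15 TPM among fixed ones. By contrast 7 of 8 luminal breast markers passed that level in both HepG2 groups and 2 of 8 in HCT-116, so HepG2 is used below as a label only. Of 8 intestinal markers, 2 passed in HCT-116. Of the HepG2 columns, 8 (1 live and 7 fixed) correlated above 0.95 with another column, and in 1 pair a live and a fixed column held equal values. Without these 8 columns the members counted below as lower and higher in fixed HepG2 stayed at 5 and 3.

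Coding bases are printed for 4 members because base composition of the whole transcript accompanies the difference between live and fixed cells. All 4 lie in coding exons. Each line starts at the P-loop, the stretch that binds the phosphates of GTP, and runs for 90 bases of the GENCODE release 44 reference transcript (GRCh38), with G and C in capitals. RAB24 and RAB40C are the members counted below as lower in fixed cells of both lines. RAB12 is the one counted as higher in both, and RAB21 came closest to it. RAB24 spans chr5:177301198-177303719 on the minus strand, RAB40C chr16:589357-629268, RAB12 chr18:8609437-8639383 and RAB21 chr12:71754863-71800286, the last 3 on the plus strand (gene spans from RefSeq).
RAB24: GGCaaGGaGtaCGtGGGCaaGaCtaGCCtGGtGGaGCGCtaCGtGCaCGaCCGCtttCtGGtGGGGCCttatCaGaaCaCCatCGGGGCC
RAB40C: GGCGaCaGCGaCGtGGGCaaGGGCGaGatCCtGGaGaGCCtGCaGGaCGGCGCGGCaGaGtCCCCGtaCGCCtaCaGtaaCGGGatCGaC
RAB12: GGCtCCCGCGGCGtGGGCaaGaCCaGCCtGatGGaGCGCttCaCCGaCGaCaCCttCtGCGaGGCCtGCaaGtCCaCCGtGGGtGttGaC
RAB21: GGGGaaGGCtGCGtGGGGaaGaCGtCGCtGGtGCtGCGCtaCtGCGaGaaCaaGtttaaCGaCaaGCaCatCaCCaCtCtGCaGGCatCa
The window is 62.2% G and C in RAB24, 67.8% in RAB40C, 66.7% in RAB12 and 57.8% in RAB21. Over the whole transcript the order differs, with 58.6% in RAB24, 65.3% in RAB40C, 45.4% in RAB12 and 37.1% in RAB21. The printed window was richer in G and C than the transcript as a whole in each gene, and most so in RAB12 and RAB21. The window of RAB12 was also richer than that of RAB24, so the windows alone do not follow the difference between live and fixed cells.

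RAB transcripts were abundant in all 4 groups. Their summed level per cell was 912 ± 121.2 TPM in live HCT-116 (SD, n = 91 cells), 1113 ± 206 in fixed HCT-116 (n = 92), 1225 ± 283 in live HepG2 (n = 68) and 1435 ± 262 in fixed HepG2 (n = 83). With ribosomal RNA left out and each cell rescaled, the sums were 1242 ± 185.5, 1220 ± 226, 1478 ± 303 and 1538 ± 267 TPM. The higher sum of fixed HCT-116 cells was therefore not seen once ribosomal RNA was set aside. A mean of 10 TPM or more was reached by 28 members in at least 1 group and by 17 in all 4, and 1 TPM by 50 and 39. The 10 highest members held 67.3% of the RAB sum in live HCT-116, 71.1% in fixed HCT-116, 67.7% in live HepG2 and 69.4% in fixed HepG2.

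A median of 41 members was detected (TPM above 0) per live HCT-116 cell (lowest 31, highest 49) and of 36 per fixed cell (25 to 49). In HepG2 the medians were 47 (34 to 54) and 43 (31 to 56). The ranges overlapped widely in both lines. The mean number was lower by 4.25 members in fixed than in live HCT-116 cells and by 2.46 in HepG2. Over all genes the mean number detected was 12029 live and 10506 fixed in HCT-116, and 13858 and 12118 in HepG2. RAB genes made up 0.341% of all detected genes live and 0.348% fixed in HCT-116, against 0.338% and 0.350% in HepG2. Fixed cells had fewer reads, and after each cell was thinned to 500000 reads, which left out 3 fixed HCT-116 cells, the mean number was 35.4 live and 31.8 fixed in HCT-116, and 38.8 live and 37.6 fixed in HepG2.

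**Figure D1:**
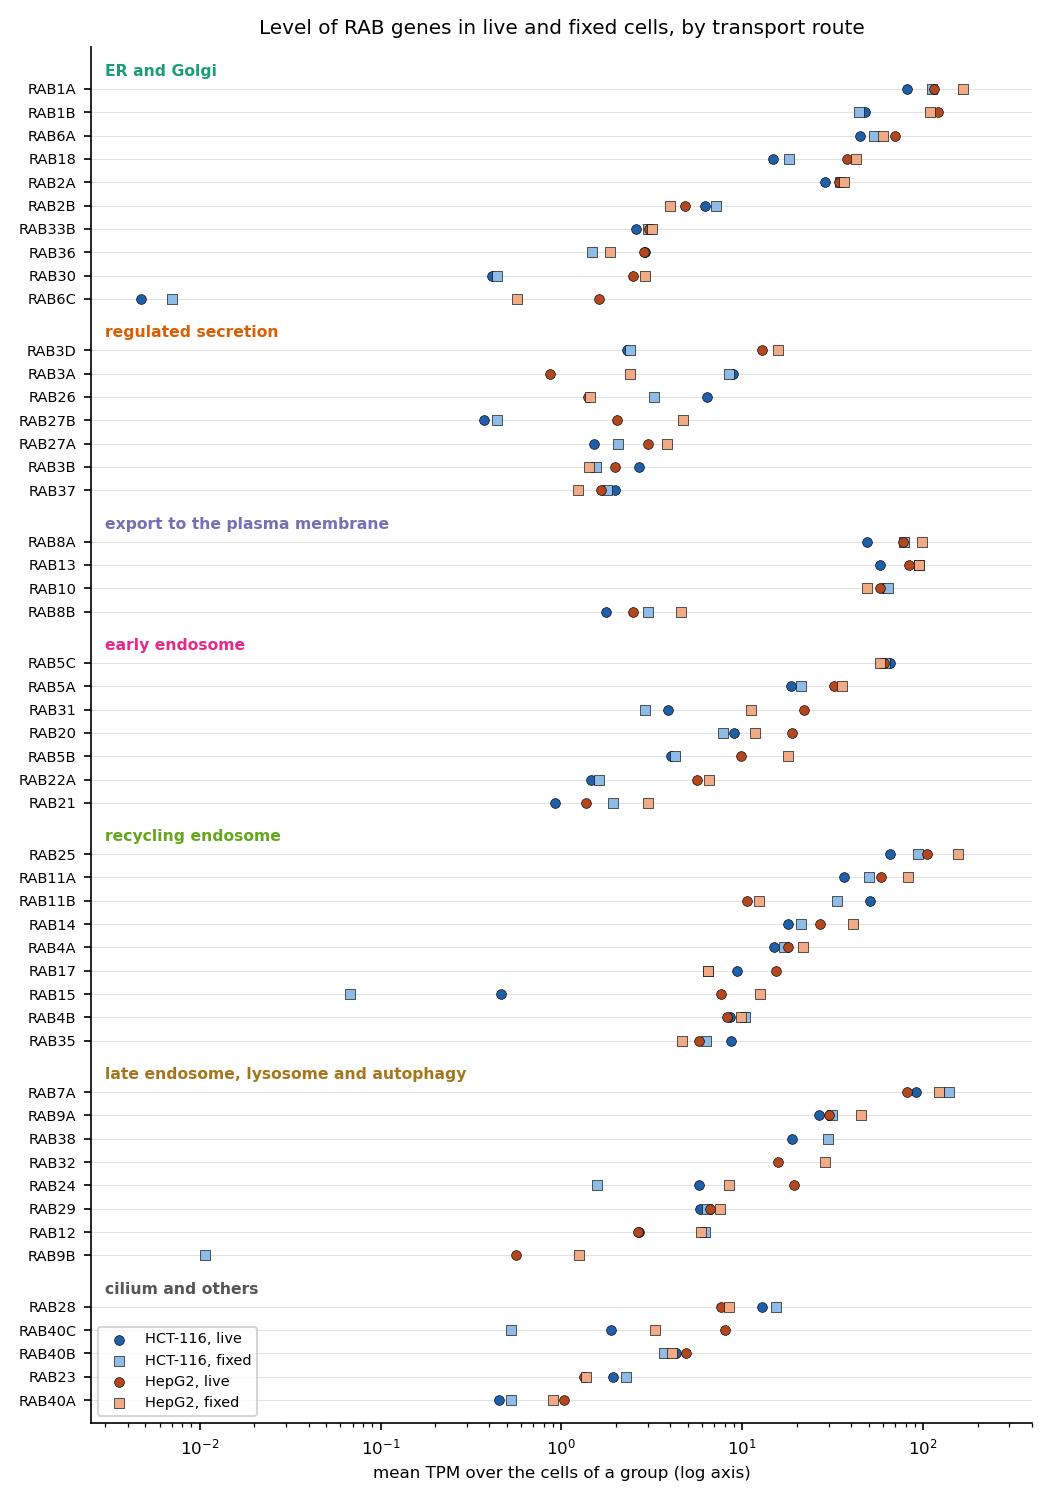
Mean TPM (log axis) of the 50 RAB genes with a mean of 1 TPM or more in at least 1 of the 4 groups, by route. Live and fixed cells of HCT-116 and HepG2 have separate symbols. The 4 groups keep most members in a similar order, and RAB3D, RAB5B, RAB11B, RAB15 and RAB31 are among those whose lines lie far apart.

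On the route from the ER through the Golgi, RAB1A, which acts with RAB1B in transport of new proteins to the Golgi, was the highest of the ER and Golgi members in HCT-116 and in fixed HepG2, and RAB1B in live HepG2. RAB1A had a mean of 81.4 ± 24.2 TPM in live HCT-116 (lowest 30.6, median 78.2, highest 172.8), 112.3 ± 34.1 in fixed HCT-116 (28.4, 110 and 238), 114.3 ± 37.2 in live HepG2 (34, 114.2 and 228) and 165.4 ± 46.6 in fixed HepG2 (42.5, 162.1 and 350.3). It was present in every cell, and the 4 distributions overlapped. RAB1B was at 47.8 ± 15.4 TPM before and 44.4 ± 19.7 after fixation in HCT-116, and at 121.2 ± 46.9 and 109 ± 46.4 TPM in HepG2. RAB1A was thus above RAB1B in HCT-116, whereas in live HepG2 the means differed by less than the SD of either. RAB6A, of Golgi retrograde traffic, ranged from 44.7 to 69.9 TPM over the groups, and RAB2A, which acts between Golgi and ER, from 28.7 to 36.3. RAB18, found on the ER and on lipid droplets, reached 14.7 ± 7.42 TPM live and 18.1 ± 10.3 fixed in HCT-116 against 37.9 ± 13.7 and 42.5 ± 14.9 in HepG2.

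Among the exporters to the plasma membrane RAB8A, RAB10 and RAB13, a GTPase of epithelial junctions, were in the same range. RAB10 had means between 49 and 64 TPM in the 4 groups, RAB8A between 48.9 and 98.9 and RAB13 between 58 and 95.4. RAB8B was low, with 1.77 to 4.6 TPM. These 4 genes made up 18.4% of the RAB sum in live HCT-116, 21.6% in fixed HCT-116, 18% in live HepG2 and 17.2% in fixed HepG2.

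Secretory granule RABs were scarce: the 9 genes of regulated secretion held between 1.79% and 2.64% of the RAB sum. RAB3D, on the granules of exocrine cells, was highest in HepG2 with 12.9 ± 7.53 TPM live and 15.7 ± 9.07 fixed, against 2.29 ± 2.46 and 2.40 ± 3.20 in HCT-116. RAB3A, best known from synaptic vesicles, was higher in HCT-116, with 8.85 ± 8.80 TPM live (lowest 0, median 6.11, highest 39.9) and 8.49 ± 10.7 fixed (0, 5.24 and 69.8), against 0.870 ± 1.32 and 2.39 ± 3.71 in HepG2. RAB3C and RAB44 stayed at or below 0.0126 TPM in all groups. RAB3C was detected in 0 of 92 fixed HCT-116 cells, which allows a share of up to 3.26% (3 counts of the total).

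At the early endosome RAB5C led RAB5A and RAB5B, the 3 paralogs that drive endosome fusion. RAB5C was level across groups, between 58.1 and 65.7 TPM. RAB5A ranged from 18.5 to 35.4 TPM. RAB5B averaged 4.02 ± 2.75 TPM in live HCT-116 and 4.25 ± 3.37 in fixed (medians 3.30 and 3.84), against 9.89 ± 4.75 and 18 ± 11.2 in HepG2 (medians 8.84 and 16). RAB31, at early endosomes and the trans-Golgi network, was the most uneven from cell to cell of the members above 20 TPM in live HepG2, with a mean of 21.9 ± 20.8, a lowest value of 0, a median of 14.6 and a highest of 97.9. RAB20 reached 18.8 ± 12.1 TPM in live HepG2, and its other means lay between 7.80 and 11.8.

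Recycling endosome members carried 20.9% to 24.2% of the RAB sum. RAB25, the RAB11 relative restricted to epithelia, averaged 65.4 ± 26.9 TPM live and 93.2 ± 45.6 fixed in HCT-116, against 105.2 ± 38.6 and 155.5 ± 53.9 in HepG2. Its relatives RAB11A and RAB11B differed between the lines in opposite directions. RAB11A averaged 36.3 ± 11 TPM live and 49.9 ± 17.5 fixed in HCT-116, against 58.8 ± 19.4 and 82.9 ± 25.8 in HepG2. RAB11B averaged 50.7 ± 22.7 TPM in live HCT-116 (lowest 5.73, median 48.3, highest 106.3) and 33.2 ± 19.2 in fixed (1.76, 29.5 and 94.3), against 10.6 ± 5.94 in live HepG2 (0, 10.2 and 29.8) and 12.3 ± 7.95 in fixed (0, 13.2 and 38.9). The ranges of RAB11B overlapped between the lines. RAB14, in traffic between Golgi and endosomes, ranged from 17.9 to 41.1 TPM, RAB4A, of fast recycling, from 14.9 to 21.6, and RAB4B from 8.28 to 10.3. RAB17, a GTPase of polarised epithelial cells, had its highest mean in live HepG2, 15.4 ± 10.1 TPM.

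RAB7A, which brings late endosomes to lysosomes, was the highest RAB gene of HCT-116. Its mean there was 91.8 ± 29 TPM live and 139.6 ± 51.2 fixed, and in HepG2 81.4 ± 26.3 and 122.5 ± 36.2. RAB7A was the top RAB gene in 47.3% of live HCT-116 cells (exact 95% interval 36.7 to 58%, counting error only, as for all shares here) and 45.7% of fixed ones. In live HepG2 RAB1B was top in the largest share, 33.8% (22.8 to 46.3%), and in fixed HepG2 RAB1A was, with 41% (30.3 to 52.3%). RAB9A, of the route from late endosomes to the trans-Golgi network, ranged from 26.5 to 45.5 TPM. RAB32 and RAB38, paralogs that serve lysosome-related organelles such as melanosomes and share 71.8% of their aligned coding bases, were listed in 1 line each: RAB38 in HCT-116, at 18.9 ± 15.5 TPM live and 29.7 ± 24.6 fixed, and RAB32 in HepG2, at 15.7 ± 19.2 live and 28.6 ± 27.3 fixed. Each table lists a gene only where at least 1 cell is above 0.

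Of the last route, RAB28, a ciliary GTPase, averaged 12.8 TPM live and 15.3 fixed in HCT-116, and 7.67 and 8.49 in HepG2. RAB40A, RAB40B and RAB40C, which unlike other RABs carry a SOCS box and join ubiquitin ligases, stayed at or below 7.99 TPM. The coding sequences of RAB40A and RAB40B are 89.5% identical, so reads can be shared between them and their split is uncertain. The means of RAB23, a ciliary regulator of Hedgehog signalling, lay between 1.33 and 2.27 TPM. On the other routes RAB2B ranged from 4.0 to 7.12 TPM, RAB33B, a Golgi member that binds autophagy proteins, from 2.58 to 3.17, RAB37 from 1.24 to 1.99 and RAB29, a partner of the kinase LRRK2, from 5.85 to 7.54. The remaining members were low: 18 of 60 were below 1 TPM in each HCT-116 group, and 14 of 61 in each HepG2 group. RAB3C, RAB6B, RAB7B, RAB19, RAB33A, RAB34, RAB39A, RAB39B, RAB41, RAB42, RAB43 and RAB44, 12 genes in all, reached 1 TPM in no group. RAB9B, the paralog of RAB9A, was listed at 0 in all 91 live HCT-116 cells, which allows a share of up to 3.30% (3 counts of the total), and was found in 1 of 92 fixed ones, but in 38.2% of live (26.7 to 50.8%) and 47% of fixed HepG2 cells (35.9 to 58.3%), where it averaged 0.562 ± 0.999 and 1.25 ± 2.58 TPM.

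Line differences were measured in live cells and again in fixed cells. For each gene the log2 ratio of mean TPM was taken relative to the median ratio over all genes tested, that is, those averaging 1 TPM or more over both groups, and a relative log2 ratio of 1 or more in size was counted. With 1 sample a group this marks a size, not a tested difference, and the tables of the lines were made separately. In live cells 11 of 45 members were higher in HepG2, where 20.5% of 12481 genes were, and 3 were lower, where 20% were. In fixed cells the same 11 and 3 of 45 members passed, against 20.6% and 19.2% of 12232 genes. The 14 members are 31.1% of the 45, and 31% of all 11700 genes tested in both treatments passed in the same direction in both. The median of the members was 0.43 in live and 0.28 in fixed cells.

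RAB15, of the recycling endosome and known from neurons, was the furthest apart. Its mean was 0.466 ± 1.18 TPM in live HCT-116 (lowest 0, median 0, highest 6.01), 0.0674 ± 0.258 in fixed HCT-116 (0, 0 and 1.91), 7.67 ± 6.75 in live HepG2 (0, 6.20 and 35.3) and 12.5 ± 9.92 in fixed HepG2 (0, 12.1 and 45.4). It was found in 25.3% of live and 13% of fixed HCT-116 cells and in 92.6% and 95.2% of HepG2 cells, and its relative log2 ratio was 3.97 in live and 7.47 in fixed cells, the latter over a mean that few cells made up. With means of log2(TPM + 1) the fixed value was 3.02. RAB27B, which docks secretory vesicles, averaged 0.375 TPM live and 0.440 fixed in HCT-116, against 2.03 and 4.71 in HepG2, a relative log2 ratio of 2.37 and 3.35. RAB30, a Golgi member, followed with 0.412 and 0.438 TPM against 2.48 and 2.88. The other members higher in HepG2 in live and fixed cells were RAB3D (2.43 and 2.65), RAB31 (2.44 and 1.90), RAB40C (2.02 and 2.58), RAB22A (1.89 and 1.95), RAB24 (1.67 and 2.36), RAB18 (1.3 and 1.17), RAB1B (1.27 and 1.23) and RAB5B (1.23 and 2.02), with the relative log2 ratio of each in parentheses. With means of log2(TPM + 1) some fell short of the limit: RAB27B in live cells (0.91), RAB30 in live (0.86) and fixed cells (0.78) and RAB31 in fixed cells (0.92). RAB5B in live cells was at 0.99 with no filter on low values.

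RAB3A, RAB11B and RAB26 were lower in HepG2. RAB3A had relative log2 ratios of -3.41 in live and -1.89 in fixed cells, RAB11B of -2.33 and -1.50, and RAB26, a granule GTPase, of -2.25 and -1.25. RAB26 was found in 61.5% of live and 43.5% of fixed HCT-116 cells and in 39.7% and 33.7% of HepG2 cells, and with means of log2(TPM + 1) its fixed value was -0.60. RAB28 came next, at -0.81 and -0.91, then RAB35 in live cells, at -0.65, and RAB2B in fixed ones, at -0.90.

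RAB6C, a close copy of RAB6A, was found mainly in HepG2. Its coding sequence is 91.8% identical to that of RAB6A over 624 aligned bases, with a longest identical run of 85 bases. The first 90 coding bases of both, printed to show how little separates their reads, differ at 2 bases, set in capitals (RAB6A from chr11:73675638-73761074, minus strand, and RAB6C from chr2:129979666-129982738, plus strand).
RAB6A: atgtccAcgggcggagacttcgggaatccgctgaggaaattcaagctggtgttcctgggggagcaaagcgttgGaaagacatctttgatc
RAB6C: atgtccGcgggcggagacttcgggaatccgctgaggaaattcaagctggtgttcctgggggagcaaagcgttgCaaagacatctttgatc
RAB6C was found in 2.20% of live and 3.26% of fixed HCT-116 cells, with means of 0.00475 and 0.00703 TPM, and in 57.4% of live and 30.1% of fixed HepG2 cells, with means of 1.62 ± 2.57 and 0.570 ± 1.14 TPM. RAB6A itself was in every cell of all 4 groups. Because shared reads are divided by the quantifier, the RAB6C values are uncertain. Smart-seq2 does not keep the strand, so reads from places where exons of a member overlap exons of another gene can also not be told apart. In the RefSeq annotation the span of RAB3A overlaps that of MPV17L2, RAB11B that of RAB11B-AS1 and RAB12 that of RAB12-AS1. The same holds for RAB15 with CHURC1-FNTB and RAB36 with RSPH14. Whether their exons overlap was not examined.

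**Figure D2:**
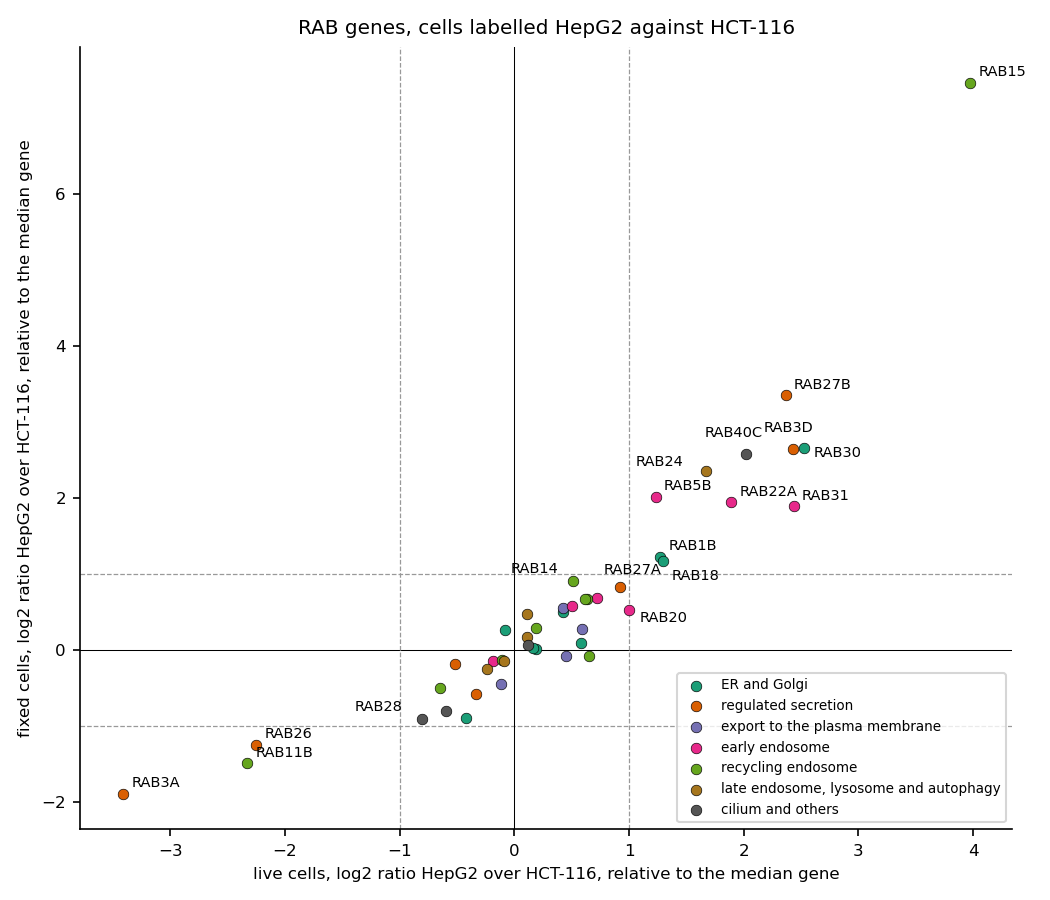
Relative log2 ratio of HepG2 over HCT-116 in live cells (x axis) and fixed cells (y axis) for the 45 RAB genes tested in both, coloured by route, with dashed lines at 1 and -1. RAB15 lies at 3.97 and 7.47, RAB3A at -3.41 and -1.89, and the 14 members past the lines in live cells are also past them, on the same side, in fixed cells.

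Most RAB genes stayed within the limit between fixed and live cells. In HCT-116, 1 of 43 members was higher and 4 lower, against 2.01% and 11.4% of the 11813 genes tested, and the median of the members was 0.03. In HepG2, 3 of 47 were higher and 5 lower, against 3.35% and 11.7% of 12486 genes, with a median of 0.04. These ratios are relative to a median log2 ratio of 0.17 in HCT-116 and 0.15 in HepG2. For lower members the shares of 9.30% and 10.6% are near those of all genes.

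RAB24, an atypical member linked to autophagy, was lower in fixed cells of both lines. Live HCT-116 cells had 5.78 ± 6.49 TPM (lowest 0, median 4.64, highest 31.7) and fixed cells 1.57 ± 2.79 (0, 0 and 9.54), a relative log2 ratio of -2.04. In HepG2 the values were 19.3 ± 11 TPM live (0, 17.9 and 45.9) and 8.46 ± 8.62 fixed (0, 7.19 and 44.5), a relative log2 ratio of -1.34. It was found in 72.5% of live (62.2 to 81.4%) and 29.3% of fixed HCT-116 cells (20.3 to 39.8%), the largest drop in share of any member tested in that line. The ranges overlapped in both lines, because some live cells also lacked it. With means of log2(TPM + 1) the HCT-116 value was -1.29.

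RAB40C was the other member lower in both lines. It had 1.88 ± 2.79 TPM in live HCT-116 (0, 0 and 10.4) and 0.524 ± 1.63 in fixed (0, 0 and 8.02), and 7.99 ± 5.13 in live HepG2 (0, 7.73 and 17.7) and 3.27 ± 3.95 in fixed (0, 2.40 and 17.3). The relative log2 ratios were -2.01 and -1.43. The share of cells was 42.9% live and 13% fixed in HCT-116 and 91.2% and 67.5% in HepG2. With means of log2(TPM + 1) in place of mean TPM the HCT-116 value was -0.63, short of the limit.

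In HCT-116 RAB36, of the Golgi, and RAB26 were also lower, both at -1.13. RAB36 had 2.89 ± 3.45 TPM live and 1.48 ± 2.62 fixed, and RAB26 6.36 ± 8.39 and 3.26 ± 5.98. RAB3B, a relative of RAB3A, was just short of the limit at -0.96, with 2.69 ± 2.72 and 1.55 ± 1.71 TPM. With the summed transcript values RAB36 was at -0.25, and RAB26 was at -0.85 among cells paired on total reads. In HepG2 RAB17, RAB6C and RAB31 were lower, at -1.41, -1.66 and -1.11. RAB6C was at -0.52 with means of log2(TPM + 1), and RAB31 fell short of the limit in 3 of 9 alternatives, down to -0.92. RAB17 had 15.4 ± 10.1 TPM live (0, 14 and 47.7) and 6.45 ± 7.24 fixed (0, 5.49 and 32.8), and was found in 97.1% and 79.5% of cells. In HCT-116 it was at 9.39 ± 8.26 and 6.5 ± 8.22 TPM, a relative log2 ratio of -0.70. RAB31 was at 21.9 ± 20.8 and 11.2 ± 16.6 TPM in HepG2.

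RAB12, which steers transferrin receptor to degradation, was higher in fixed cells of both lines. Live and fixed HCT-116 cells had 2.68 ± 2.80 TPM (0, 1.71 and 13.3) and 6.23 ± 4.69 (0.210, 5.43 and 26.8), and HepG2 cells 2.63 ± 2.77 (0, 1.63 and 14.9) and 5.87 ± 4.58 (1.2, 4.67 and 28.8). The relative log2 ratios were 1.05 and 1.01. RAB12 was in every fixed cell, in 94.5% of live HCT-116 and in 97.1% of live HepG2 cells. In HepG2 its ratio fell short of the limit in 4 of 8 alternatives, and was lowest, at 0.45, between cells paired on total reads. RAB21, which moves integrins through early endosomes, was just inside the limit at 0.90 and 0.99, with 0.923 ± 0.891 TPM live and 1.93 ± 1.88 fixed in HCT-116, and 1.37 ± 0.910 and 3.01 ± 2.15 in HepG2. RAB8B, the minor exporter, followed at 0.60 in HCT-116 and 0.74 in HepG2.

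RAB3A and RAB27B also passed the limit upward in HepG2. RAB27B was not tested in HCT-116, where it averaged below 1 TPM. RAB3A was at 0.870 and 2.39 TPM in live and fixed HepG2, a relative log2 ratio of 1.31, which was 0.46 with means of log2(TPM + 1) and 0.78 in cells paired on reads. Its share was 47.1% live and 50.6% fixed there. In HCT-116 its ratio was -0.23 and its share went from 87.9% (79.4 to 93.8%) to 68.5% (58 to 77.8%). RAB27B was at 2.03 ± 2.26 and 4.71 ± 5.04 TPM, a ratio of 1.07. It fell short of the limit in 3 of 8 alternatives, down to 0.80, and was at 0.89 when cells were paired on reads.

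**Figure D3:**
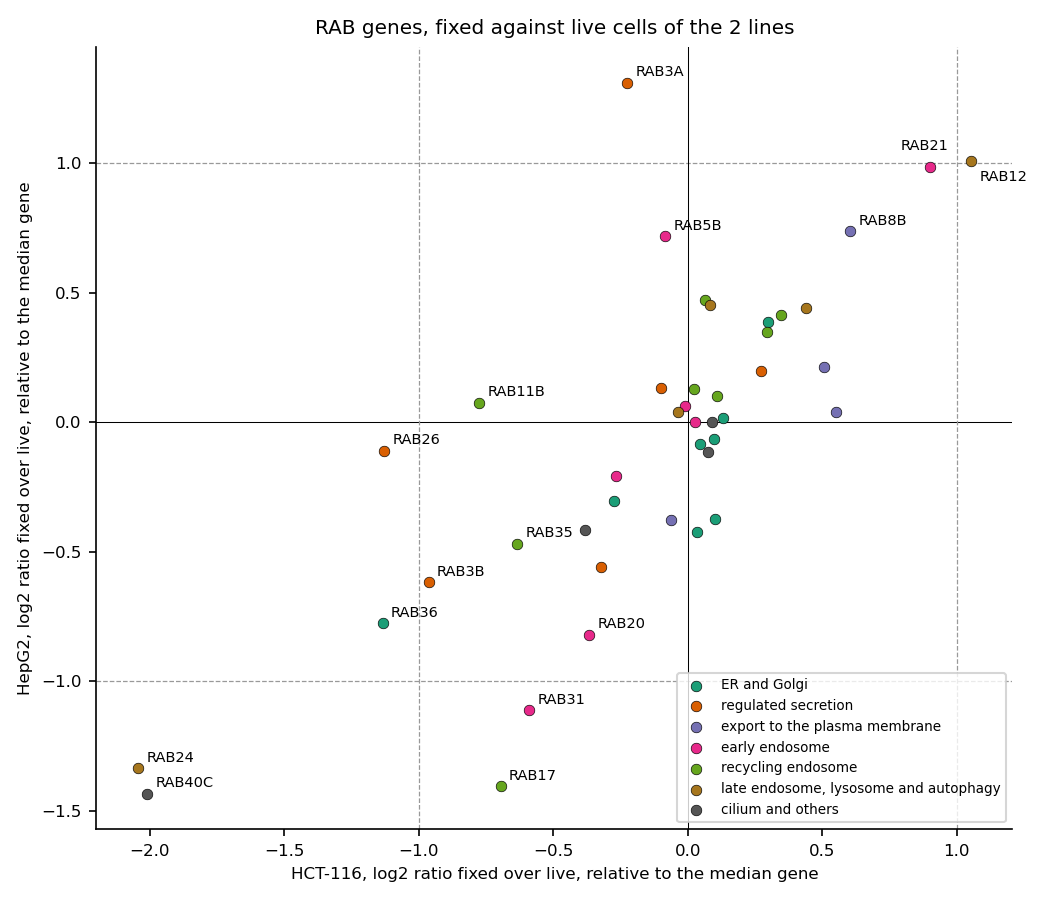
Relative log2 ratio of fixed over live cells in HCT-116 (x axis) and HepG2 (y axis) for the 42 RAB genes tested in both lines, coloured by route, with dashed lines at 1 and -1. RAB24 and RAB40C lie below -1 and RAB12 above 1 on both axes, and RAB3A lies at -0.23 and 1.31.

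The lines shared no cells, and 30 of 42 members tested in both had the same sign, 16 above and 14 below 0, and over all genes 71.7% had, a share close to that of the members. Across these 42 genes the relative log2 ratios of the lines had a Pearson r of 0.75 and a Spearman correlation of 0.71, and a Spearman correlation of 0.56 across all 10443 genes. Genes are not independent replicates, and in each line fixation cannot be told apart from library batch. The difference between lines was below 0.5 for 33 of the 42 members. Medians by route were taken over all members tested in each line, not over the 42, so some sets differ between the lines. The 6 tested members of late endosomes, lysosomes and autophagy had medians of 0.26 in HCT-116 and 0.45 in HepG2. RAB38 was among them only in HCT-116 and RAB32 only in HepG2. The 4 exporters had 0.53 and 0.13, and the 4 tested members of the cilium and others -0.15 and -0.27. Medians were 0.04 (8 members) and 0.13 (9 members) at the recycling endosome and -0.08 and -0.00019 (7 members each) at the early endosome. They had opposite signs on the ER and Golgi, 0.07 (8 members) and -0.19 (10 members). The same held in regulated secretion, at -0.27 (6 members) and 0.13 (7 members, with RAB27B added).

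The share of cells with a gene detected differed between fixed and live HCT-116 by a median of -5.43 points for the members and -5.36 for all genes tested. In HepG2 these medians were 0 and -2.41 points. Intervals of live and fixed cells did not overlap for 7 of 43 members in HCT-116, all with a lower share in fixed cells, where 16.7% of all genes were lower and 0.0423% higher. They were RAB3A, RAB3B, RAB17, RAB24, RAB35, RAB36 and RAB40C. In HepG2 7 of 47 were lower and 0 higher, against 9.59% and 0.4% of all genes. They were RAB3B, RAB6C, RAB17, RAB20, RAB31, RAB36 and RAB40C. RAB35, of fast endosomal recycling, was found in 96.7% of live and 75% of fixed HCT-116 cells, and RAB20 in 94.1% of live and 73.5% of fixed HepG2 cells. By contrast 11 members in HCT-116 and 17 in HepG2 were in all cells of both treatments. Fixed cells had the lower median depth in both lines, and its part in these shares was not tested gene by gene.

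**Figure D4:**
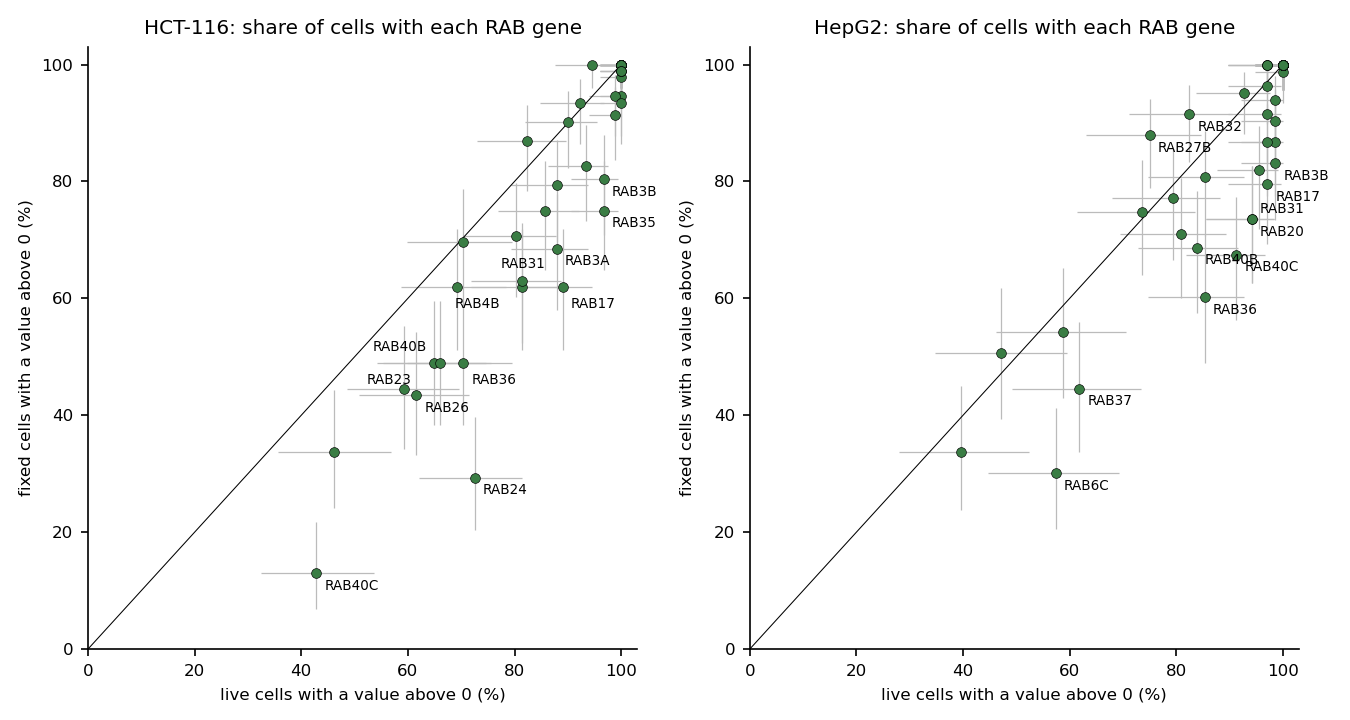
Percent of live cells (x axis) and of fixed cells (y axis) in which each tested RAB gene was detected, in HCT-116 and HepG2, with exact 95% intervals as bars. RAB24 in HCT-116 lies at 72.5% and 29.3%, and RAB40C lies below the diagonal in both panels.

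Base composition moved with these ratios. Across the 43 members tested in HCT-116 the relative log2 ratio of fixed over live had a Spearman correlation of -0.58 with the percent of G and C in the reference transcript, and of -0.48 across the 10520 genes with a value. In HepG2 the correlation was -0.32 across 47 members and -0.30 across 10867 genes. With transcript length it was 0.01 and 0.05 for the members. All genes were ranked by G and C and divided into 5 equal groups. In the richest group 34.4% of genes were lower in fixed HCT-116 cells and 27.6% in fixed HepG2 cells. Of the 8 members of that group in HCT-116, RAB24, RAB26 and RAB40C were lower. Of the 10 in HepG2, RAB17, RAB24 and RAB40C were lower and RAB3A was higher. The members there had a median of -0.73 in HCT-116 and -0.39 in HepG2, against -0.65 and -0.41 for all genes of the group. RAB36, lower in HCT-116, was in the next to richest group. RAB31 and RAB6C, lower in HepG2, were in the next to lowest group, at 42.6% and 43.1% G and C. What part composition has in the ratios was not tested.

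**Figure D5:**
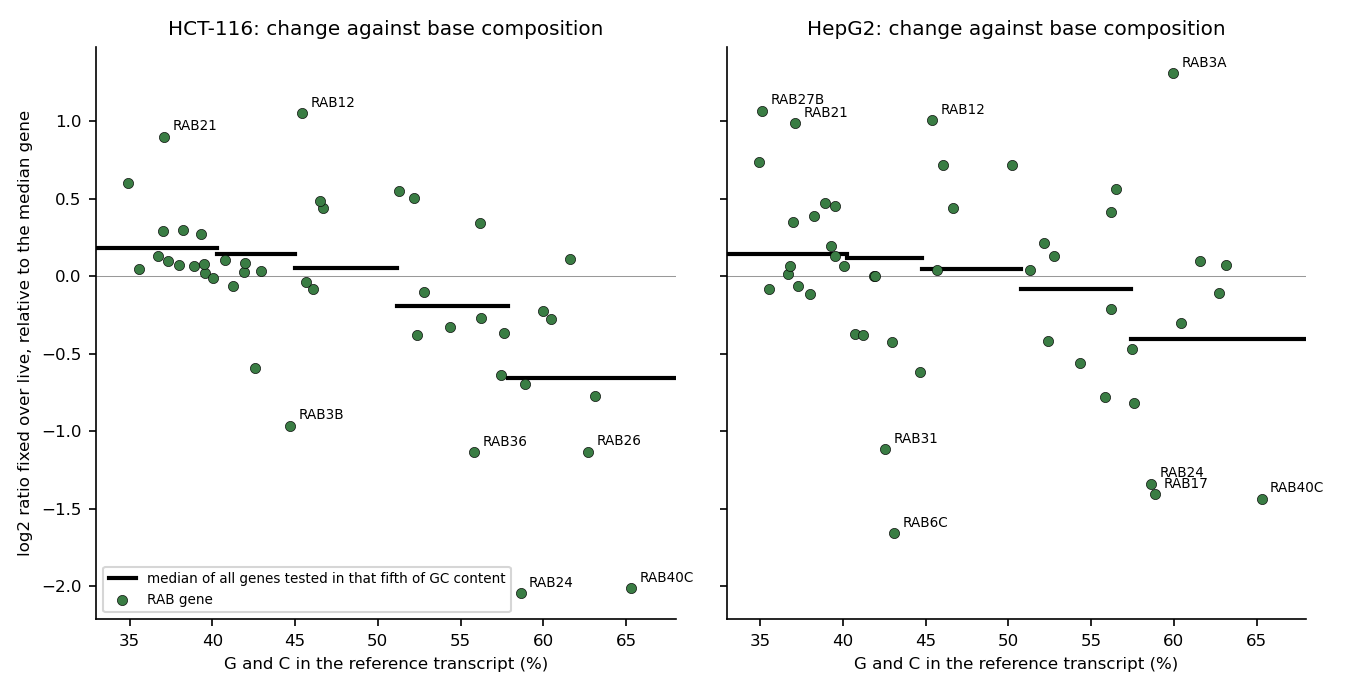
Relative log2 ratio of fixed over live cells (y axis) against percent G and C of the reference transcript (x axis) for the tested RAB genes of HCT-116 and HepG2, over the median of all genes in 5 groups of rising G and C. RAB24 and RAB40C, at 58.6% and 65.3%, lie at the bottom of the HCT-116 panel, and RAB12, at 45.4%, at its top.

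The transcript tables give CPM (estimated counts over all reads of that cell, with no correction for length) for each RefSeq transcript, and the quantifier divides reads between overlapping transcripts, so splits within a gene are estimates. Of 32 RAB genes with at least 5 CPM in every group, 29 had the same highest curated transcript in all 4 groups. The exceptions were RAB2B, RAB5B and RAB29. Only 16 of the 32 had 2 or more curated transcripts at 1 CPM or more. For the others a change of the highest transcript was hardly possible, so the count of 29 says little about them. For RAB24 the lower level of fixed cells lay mainly in a transcript annotated as non-coding, NR_109790.1, at 3.02 CPM live and 0.388 fixed in HCT-116, and 11.1 and 0.702 in HepG2. The coding NM_001031677.3 was at 1.94 and 0.338 CPM in HCT-116 and 10.7 and 6.5 in HepG2. Non-coding transcripts made up 52.1% of RAB24 in live and 12.5% in fixed HepG2 cells, and 61.4% and 51.8% in HCT-116.

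RAB40C also differed by transcript. NM_021168.4 was at 8.90 CPM in live and 1.18 in fixed HepG2 cells, while NM_001172666.1 of the same gene was at 1.35 and 3.06. RAB17 split alike: coding NM_022449.3 was at 16.8 and 6.36 CPM in live and fixed HepG2, and non-coding NR_033308.1 at 2.0 and 2.47. RAB12 has 1 curated transcript, at 3.33 CPM live and 8.99 fixed in HCT-116, and 4.08 and 8.82 in HepG2. The line difference of RAB5B lay in NM_001252036.1, at 7.30 CPM live and 6.77 fixed in HCT-116, against 36.9 and 66.5 in HepG2, whereas NM_002868.3 was between 5.01 and 7.20 CPM in all groups. RAB6A was mostly NM_002869.4, 68.9% of its curated reads in live and 62% in fixed HCT-116, 53.5% in live and 55.1% in fixed HepG2, with NM_198896.1 as the next.

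The proteins that load, unload and use RABs were read from lists of 8 prenylation and cycling genes, 48 exchange factors, 34 GTPase activating proteins and 39 effectors. In fixed against live HCT-116 cells 0 of 8, 3 of 40, 4 of 27 and 6 of 33 tested genes were lower, beside 11.4% of all genes, and none was higher. In HepG2 0 of 8, 1 of 40, 3 of 31 and 4 of 31 were lower, beside 11.7% of all genes, and TRAPPC8, a subunit of a RAB1 exchange factor, alone was higher. The medians of the lists in HCT-116 were 0.19, 0.00, -0.32 and -0.45, and in HepG2 0.22, 0.13, -0.13 and -0.24. RIN1, an exchange factor of RAB5, was at 14.6 ± 8.23 TPM live and 3.09 ± 4.37 fixed in HCT-116, and RABEP2, a RAB5 and RAB4 effector, was at 9.54 ± 5.61 and 3.02 ± 4.70 in HepG2. GDI2, the highest of the cycling genes, averaged 92.7 ± 29 TPM in live HCT-116 and 183.1 ± 57.1 in live HepG2. Of the other small GTPases, the 7 ARF and SAR1 genes had medians of 0.19 in HCT-116 and 0.26 in HepG2, against 0.03 and 0.04 for the RAB genes.

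Several effectors of RAB27 differed between the lines. SYTL3 was at 42.3 ± 26.2 TPM in live HCT-116 and 0.335 ± 0.987 in live HepG2, whereas SYTL2 was at 2.31 ± 4.69 and 38.3 ± 25.5, SYTL5 at 0.0128 ± 0.0726 and 7.31 ± 9.27, and MLPH at 24.5 ± 18.5 and 114.97 ± 57.3. Fixed cells gave the same directions, with SYTL3 at 51.5 and 0.491 TPM and SYTL2 at 1.78 and 44.5. RAB27A itself was at 1.51 ± 2.25 TPM in live HCT-116 and 3.01 ± 3.09 in live HepG2, a relative log2 ratio of 0.92, and at 0.83 in fixed cells. RABGGTB, a subunit of the enzyme that prenylates RABs, was at 79.4 ± 40.6 TPM in live HCT-116 and 18.8 ± 15.3 in live HepG2, TRAPPC6A at 9.82 ± 10.3 and 95.4 ± 37.2, and PLIN3, described as a RAB9 effector, at 111.1 ± 48.7 and 26.9 ± 18.1. In live HepG2 against live HCT-116 9 of 30 GTPase activating proteins were higher and 6 lower, 4 and 7 of 39 exchange factors, 6 and 5 of 32 effectors and 2 and 1 of 8 prenylation and cycling genes, beside 20.5% and 20% of all genes. In fixed cells the counts were 10 and 5 of 30, 11 and 4 of 42, 7 and 4 of 32 and 1 and 1 of 8, beside 20.6% and 19.2%.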

How the data were processed

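Live and methanol-fixed single cells of HCT-116 and HepG2 were quantified by the authors with kallisto 0.46.0 (the submitters' processing notes also name FastQC). The authors deposited TPM per gene and, in tables titled as TPM, values per transcript that behave as CPM, after mapping to human GRCh38. The members, routes and lists were chosen with earlier results of these data known. A gene was tested at a mean of both groups of 1 TPM or more, its log2 ratio of mean TPM was centred on the median over all genes tested, and a value of 1 or more in size was counted. Named with values are members reaching 10 TPM in any group, those counted in a comparison, the 5 furthest on either side of each, and, of the other lists, the highest gene and a selection of those counted. A gene counted as detected above 0 TPM. Intervals of shares above 0 are exact Clopper-Pearson 95% intervals, and a share of 0 is given a limit of 3 counts of the total. Total reads were read from the steps of the CPM values, to 0.1 M (mega reads). All 334 cells were used, the lowest with 7572 genes detected, and as 1 cell was sorted per well no doublet caller was run. Base composition comes from GENCODE release 44 reference transcripts (GRCh38), gene spans from RefSeq. A further comparison list is not reported here. Steps were tested on simulated data. Python 3.11.15, numpy 2.4.6, pandas 2.3.3, scipy 1.17.1, Biopython 1.88 and matplotlib 3.10.9 were used.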

Additional observations from a re-analysis of the deposited data

Results flagged for a closer look

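RAB3A differed between the lines in its ratio of fixed over live cells: the relative log2 ratio was -0.23 in HCT-116 and 1.31 in HepG2, a difference of 1.54 on the log2 scale. Each line and treatment is 1 sample, so the difference was not tested. Its share of cells was 87.9% live and 68.5% fixed in HCT-116 and 47.1% and 50.6% in HepG2. The span of the gene overlaps that of MPV17L2 in the RefSeq annotation, and overlap of their exons was not examined.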

How the results depend on the processing

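No member counted in a comparison changed sign under any alternative in which it was tested. The difference in RAB genes detected per cell kept its sign too. Medians by route and correlations with G and C were not rerun. With genes at 10 TPM or more, which tested 19 members in HCT-116 and 25 in HepG2, 0 were lower and 0 higher in fixed HCT-116, and 3 lower and 0 higher in fixed HepG2. The same filter gave 5 higher and 1 lower in live HepG2 against HCT-116, and 4 higher and 1 lower in fixed. With no filter the counts were 7 lower and 3 higher in fixed HCT-116, 8 higher in fixed HepG2, and 6 lower in live HepG2 against HCT-116. Means of log2(TPM + 1) left 1 lower in HCT-116 and 1 higher in HepG2. Uncentred ratios gave 2 lower and 2 higher in HCT-116. Rescaling by the median ratio left 1 higher in HepG2, and leaving out ribosomal RNA gave 5. Summed transcript values gave 6 lower in live HepG2 against HCT-116, and cells paired on reads 5 lower in fixed. Other counts stayed within 1.5 times. The share of all genes passing was computed for the main setting only. These counts therefore have no such share beside them and do not set the members apart from other genes. Of the 5 members counted in HCT-116, 2 held in all alternatives (RAB24 and RAB12), of the 8 in HepG2 3 (RAB24, RAB17 and RAB40C), and of the 14 between lines 11 in each treatment. An alternative that drops a member as untested is not counted here. The causes were not tested. No paired analysis was possible because each group is 1 sample and no number ties a live cell to a fixed one. Shares of members below 1 TPM were not measured at equal depth, so the part of depth in them was not tested.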
